A study of Mus musculus with 4 samples.

Results

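The genes of histone cluster 1 were taken as every symbol in the deposited FPKM table that starts with Hist1h, and 52 of the 9997 genes in the table met this rule. They fall into 6 H1 genes, 12 H2a genes, 14 H2b genes, 9 H3 genes and 11 H4 genes. All 52 lie on mm10 chromosome 13 between 21715763 and 23934851 in the GENCODE M21 annotation. The RNA came from embryoid bodies, clumps of differentiating embryonic stem cells, of the mouse line ES-E14TG2a. The 4 libraries, 1 per group, were embryoid bodies treated with all-trans retinoic acid (ATRA) and labelled 0, 6 and 10 days, and control embryoid bodies. ATRA at 5 µM was added on culture days 4 and 6, and after 8 days the bodies were transferred to coated dishes. The control's culture day is not stated, so in comparisons with it ATRA and culture age cannot be told apart. Since every group is a single library, differences have no replicate check and describe these 4 libraries.

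Histones package DNA into nucleosomes: H2A, H2B, H3 and H4 form the core around which DNA is wound, and H1 binds the linker DNA between cores. Most genes of this cluster are replication-dependent. They are transcribed in S phase, have no introns, and give mRNAs that end in a conserved stem-loop bound by the protein SLBP and not in a poly(A) tail. In cells that leave the cell cycle some of these genes also give polyadenylated mRNAs, and histone variants encoded elsewhere are made outside S phase. The extraction protocol names oligo(dT) priming of cDNA, which starts from poly(A) tails. The sources used here do not say if the libraries were built from it.

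FPKM, fragments scaled to transcript length and library size, is unstable for transcripts this short. Depth was estimated by taking low values of longer genes, within a fixed window, as worth 1 fragment. It came to about 24500000 fragments in the control and to 26400000, 25200000 and 27300000 at 0, 6 and 10 days. The window bounds this depth, and every fragment count below rests on it. Over the 378 nt coding length of most H2b genes, 1 FPKM then rests on 9.27 to 10.3 fragments (counting error 31.1% to 32.8%), so that 3 fragments amount to 0.291 to 0.324 FPKM. Intervals below are 95% exact Poisson intervals from this estimate and the coding length, and cover counting error only. Over the longest annotated transcript the same FPKM would stand for more fragments, for Hist1h2bc at 10 days 2540 in place of 831, and the intervals would be narrower. Calls of 2-fold or more here and below are on the log2(FPKM + 1) scale, and a plain fold is a ratio of FPKM values. As a check of the material, 7 of 8 pluripotency genes in the table (21 listed) were 2-fold or more lower than in the control, at 0 and at 10 days. Of 11 endoderm genes in the table (18 listed), 10 were higher at 10 days. This was not particular to endoderm. Of genes that reached 1 FPKM, 9 of 9 for epithelium, 6 of 7 for muscle, 4 of 5 for neurons and 2 of 3 for blood were higher at 10 days. In muscle and in blood 1 gene was lower. No cell type was assigned to a library. Of all 5885 genes at 1 FPKM or more in some library, 12.8% were lower at 0 days, and 17.1% lower and 19.6% higher at 10 days.

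The annotated transcripts of 33 of the 52 genes hold the stem-loop, searched for as a 6-base stem that begins with GG, a 4-base loop that begins with TTT, and the stem's reverse complement. Of 55450 annotated genes, 79 (0.142%) have it in a transcript, and 44 of these have symbols that start with Hist. The forms found are shown here because the transcripts of the genes described below differ in how far they run past it. The loop is in capitals, and the letters are those of the GENCODE M21 transcripts.
Form of 18 genes, among them Hist1h1c: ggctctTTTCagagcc
Form of 6 genes, among them Hist1h3c and Hist1h2bk: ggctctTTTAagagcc
Form of 6 H4 genes, among them Hist1h4d: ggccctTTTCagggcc
Form of Hist1h4b and Hist1h4j: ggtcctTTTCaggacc
Form of Hist1h4i: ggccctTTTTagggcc
Hist1h4i was the only one of the 33 with a loop of 4 T bases. In 18 of the genes the annotated transcript ends within 100 nt after the stem-loop, and in 15 it runs on for 151 to 4884 nt. In the other 19 genes no stem-loop was found in the annotated transcript, which in many of them stops at or near the stop codon. The authors may have used an annotation with other transcript ends, which the sources used here do not name.

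Reads are hard to assign within this family. The 11 H4 genes encode 1 and the same protein of 103 residues, the 9 H3 genes encode 2 proteins, the 12 H2a genes 5, the 14 H2b genes 8, and the 6 H1 genes 6. The H3 genes divide at residue 96 (counted without the initiator methionine), where 4 encode cysteine (Hist1h3a, Hist1h3g, Hist1h3h and Hist1h3i, the H3.1 form) and 5 serine (the H3.2 form). The share of a gene's 50-base stretches that also occur in a transcript of another gene had a median of 49.4% and reached 97.3%. Only Hist1h1a, Hist1h1b and Hist1h1t shared none. How Cufflinks divided such reads cannot be seen in the table, so single H2a, H2b, H3 and H4 values are uncertain between near-identical genes. Many H2a genes also overlap a predicted gene on the opposite strand, and the sources used here do not say if counting used strand.

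Most Hist1h genes had low values, and most were highest in the control. Of the 52 genes, 31 reached 1 FPKM in at least 1 library, 18 stayed below it with a value above 0 somewhere, and Hist1h2ao, Hist1h2br and Hist1h4n were listed at 0 in all 4 libraries. Of the 49 with a value above 0, the control was the highest library for 30, and 0, 6 and 10 days for 5, 3 and 11. The control had 30 genes at 1 FPKM or more, and 0, 6 and 10 days had 17, 16 and 14. In bulk RNA, fewer cells in S phase and less histone RNA per cell cannot be told apart.

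**Figure D1:**
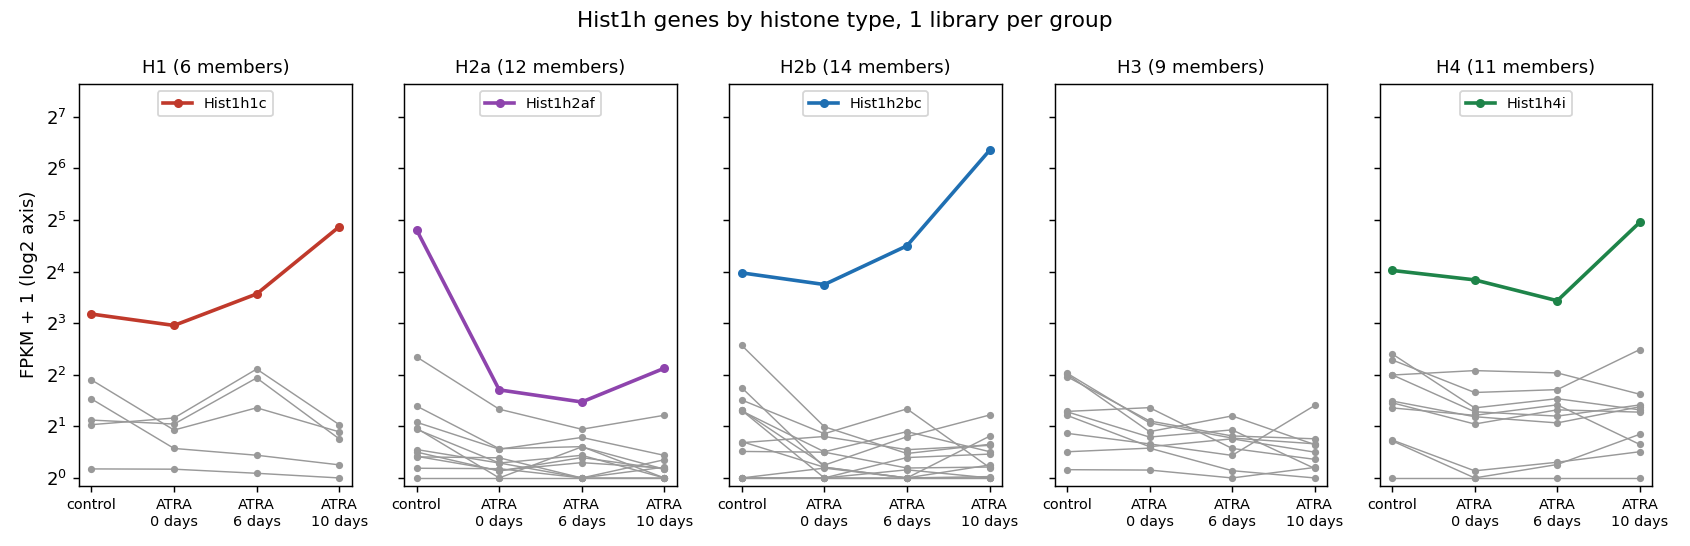
FPKM + 1 on a log2 axis for each Hist1h gene (lines) in the 4 libraries (points), by histone type, with 4 genes in colour and the rest in grey. Hist1h1c, Hist1h2bc and Hist1h4i are highest at 10 days and Hist1h2af in the control, while the grey genes stay below 5 FPKM in every library.

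The H1 genes encode linker histones, and Hist1h1c, which encodes H1.2, led them in every library. Hist1h1c (chromosome 13, 23738808 to 23740367, plus strand) had 8.05 FPKM in the control, 6.76 FPKM at 0 days, 10.8 FPKM at 6 days and 28.2 FPKM at 10 days. Its counting interval at 10 days, 25.8 to 30.9 FPKM, lay above that of every other library, the nearest being 9.30 to 12.6 FPKM at 6 days. The log2(FPKM + 1) difference was 1.30 between 10 and 6 days and 1.69 between 10 days and the control. Its annotated transcript of 1560 nt runs 840 nt past the stem-loop.

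The other H1 genes followed different courses. Hist1h1d (H1.3) had 1.05 FPKM in the control, 1.24 FPKM at 0 days, 3.32 FPKM at 6 days and 1.05 FPKM at 10 days, and Hist1h1e (H1.4) had 1.18, 1.06, 2.83 and 0.690 FPKM in the same order. Both were thus highest at 6 days, with counting intervals there of 2.50 to 4.32 and 2.08 to 3.77 FPKM. Hist1h1e overlaps Hist1h2be on the same strand in the annotation, so reads in the overlap may belong to either. Hist1h1a (H1.1) had 2.73, 0.903, 1.57 and 0.857 FPKM from the control to 10 days. Hist1h1b (H1.5) had 1.89, 0.486, 0.357 and 0.192 FPKM, the value at 10 days resting on about 3.51 fragments. Both were highest in the control. Hist1h1t, the testis linker histone, did not exceed 0.129 FPKM in any library and was listed at 0 at 10 days.

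Among the H2a genes 1 stood apart. Hist1h2af (chromosome 13, 23533906 to 23534304, plus strand) had 27.0 FPKM in the control, 2.27 FPKM at 0 days, 1.77 FPKM at 6 days and 3.37 FPKM at 10 days. The control interval, 23.8 to 30.5 FPKM, lay far above the highest of the ATRA libraries, 2.36 to 4.67 FPKM at 10 days. Its fold of 0.0838 between 0 days and the control was a log2(FPKM + 1) difference of -3.10, the largest of the cluster in that comparison. The coding part of Hist1h2af is 98.7% identical to that of Hist1h2ad, and 94.0% of its 50-base stretches occur in other genes. Hist1h2ad had 1.63, 0.482, 0.523 and 0 FPKM from the control to 10 days.

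Of the other H2a genes, Hist1h2ae had 4.08 FPKM in the control, 1.52 FPKM at 0 days, 0.924 FPKM at 6 days and 1.32 FPKM at 10 days. Hist1h2ak had 1.11, 0.472, 0.723 and 0.354 FPKM in the same order. Each of the 4 H2a genes that reached 1 FPKM was highest in the control. Hist1h2ah, Hist1h2ai, Hist1h2an, Hist1h2ab, Hist1h2ag, Hist1h2ac, Hist1h2aa and Hist1h2ao stayed below 1 FPKM throughout. Of these Hist1h2aa encodes the testis variant TH2A and did not exceed 0.156 FPKM.

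Of the H2b genes, Hist1h2bc was the highest in each library and in the 10-day library the highest of the whole cluster. Hist1h2bc (chromosome 13, 23684199 to 23692908, plus strand) had 14.7 FPKM in the control, 12.4 FPKM at 0 days, 21.6 FPKM at 6 days and 80.6 FPKM at 10 days. At 10 days its interval was 75.2 to 86.2 FPKM, against 18.8 to 24.8 FPKM at 6 days and 12.4 to 17.4 FPKM in the control. The fold was 3.72 between 10 and 6 days, and 5.47 between 10 days and the control. Unlike most of the cluster it has an annotated transcript of 2 exons, 1156 nt long, with 742 nt after the stop codon and no stem-loop.

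The other H2b genes at 1 FPKM or more were each highest in the control. Hist1h2bk had 4.93 FPKM in the control, 0.990 FPKM at 0 days, 0.389 FPKM at 6 days and 0.571 FPKM at 10 days. Hist1h2bj had 2.36, 0.157, 0 and 0.190 FPKM in that order, and Hist1h2bb 1.85, 0.813, 1.53 and 0.150 FPKM. The low values of Hist1h2bj rest on 0 to 1.96 fragments over the coding length, and their intervals lie below that of the control. Hist1h2bp had 1.48 FPKM in the control, 0.188 FPKM at 0 days, 0.739 FPKM at 6 days and 1.33 FPKM at 10 days. Hist1h2be had 1.46, 0.421, 0.864 and 0.423 FPKM. Of these, Hist1h2bp was nearest to its control value at 10 days. Hist1h2bh had at most 1.48 FPKM, in the control, and was listed at 0 at 0 and 10 days. Hist1h2bl, Hist1h2bf, Hist1h2bm, Hist1h2bn, Hist1h2ba, Hist1h2bq and Hist1h2br stayed below 1 FPKM, and Hist1h2ba, the testis variant TH2B, had 0.141 FPKM at 0 days and was listed at 0 in the rest.

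No H3 gene stood far above the others. Hist1h3e had 3.09 FPKM in the control, 1.10 FPKM at 0 days, 0.709 FPKM at 6 days and 0.582 FPKM at 10 days. Hist1h3c had 3.04, 0.862, 1.30 and 0.565 FPKM in the same order, and Hist1h3g had 2.90, 1.15, 0.758 and 0.692 FPKM. In these 3 the control was highest and 10 days lowest. Hist1h3a had 1.43, 0.732, 0.907 and 0.136 FPKM, and Hist1h3i had 1.44 and 1.57 FPKM in the control and at 0 days, then 0.487 and 0.284 FPKM. Hist1h3d ran the other way late in the series, with 0.822, 0.580, 0.354 and 1.65 FPKM. Its annotated transcript runs 752 nt past the stem-loop. Hist1h3h lay between 0.414 and 1.32 FPKM, highest in the control, and Hist1h3f and Hist1h3b stayed below 1 FPKM. Hist1h3d, Hist1h3c and Hist1h3e encode H3.2, and all 4 genes that encode H3.1 were lower at 10 days than in the control. On the log2(FPKM + 1) scale 2 of them passed 2-fold (Hist1h3a and Hist1h3g). As plain ratios of FPKM all 4 did, at 0.0948 for Hist1h3a, 0.197 for Hist1h3i, 0.239 for Hist1h3g and 0.314 for Hist1h3h. Low ratios were not particular to H3.1. Of the H3.2 genes, Hist1h3c (0.1862) and Hist1h3e (0.1885) passed 2-fold on both scales, and Hist1h3f went from 0.421 to 0 FPKM. Hist1h3d (2.006) and Hist1h3b (1.289, below 1 FPKM throughout) were higher.

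Among the H4 genes Hist1h4i led in every library. Hist1h4i (chromosome 13, 22040636 to 22041362, minus strand) had 15.3 FPKM in the control, 13.3 FPKM at 0 days, 9.82 FPKM at 6 days and 30.1 FPKM at 10 days. The interval at 10 days, 26.5 to 34.0 FPKM, lay above the control's, 12.6 to 18.3 FPKM, and that at 6 days, 7.74 to 12.3 FPKM. The log2(FPKM + 1) difference was 1.52 between 10 and 6 days and 0.93 between 10 days and the control, just short of 2-fold, and past it with either median-ratio or upper-quartile scaling of the libraries. Its annotated transcript runs 330 nt past the stem-loop.

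Hist1h4h had 3.89 FPKM in the control, 2.15 FPKM at 0 days, 2.28 FPKM at 6 days and 4.62 FPKM at 10 days. Hist1h4k had 2.99, 3.23, 3.10 and 2.08 FPKM in the same order, with intervals that overlap throughout. Hist1h4d had 4.30, 1.56, 1.90 and 1.50 FPKM, and its control interval of 2.95 to 6.05 FPKM overlaps only that at 6 days, 1.06 to 3.15 FPKM. Hist1h4b had 3.00, 1.43, 1.30 and 1.67 FPKM, and Hist1h4m 1.81, 1.28, 1.09 and 1.60 FPKM. Hist1h4a and Hist1h4f lay between 0.568 and 1.75 FPKM, and Hist1h4c, Hist1h4j and Hist1h4n stayed below 1 FPKM. All 8 H4 genes that reached 1 FPKM did so in the control, at 0 days and at 6 days, and 7 did at 10 days.

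The ATRA-treated embryoid bodies labelled 0 days had lower values than the control for most of the cluster. Of the 31 genes at 1 FPKM or more in some library, 8 (25.8%) were 2-fold or more lower and 0 were higher, where 12.8% of all 5885 genes that reached 1 FPKM were lower and 12.2% higher. The 8 were Hist1h2ae, Hist1h2af, Hist1h2bh, Hist1h2bj, Hist1h2bk, Hist1h2bp, Hist1h3c and Hist1h4d, so 2 of 4 H2a genes, 4 of 7 H2b genes, 1 of 7 H3 genes, 1 of 8 H4 genes and 0 of 5 H1 genes. The median log2(FPKM + 1) difference was -0.65 over the 31 genes and -0.04 over all genes. The 4 genes of a reference list (Tbp, Ppia, Ywhaz and Sdha, commonly used to normalize expression) had a median of -0.76 in this comparison, and each was lower in every ATRA library than in the control. Their median was -0.43 at 6 days and -0.87 at 10 days against the control. The part of this shift in the histone values was not tested. Of the 31, 9 reached 1 FPKM only in the control and so had to be lower elsewhere. Without any filter, 41 of the 47 Hist1h genes with a value in either library were lower at 0 days and 6 higher. The share of all genes for this count of signs was not computed, and many of the values rest on a few fragments. Of the 49 Hist1h genes above 0 in any library, 8 (16.3%) were 2-fold or more lower, with 8.6% of all genes. That count of 8 was fixed in advance, since genes below 1 FPKM in every library cannot pass 2-fold on this scale. It is thus no check of the filter.

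The number called depended on the pseudocount. With a pseudocount of 0.1 in place of 1, 18 of the 31 genes were 2-fold or more lower at 0 days, where 15.8% of all genes were. Upper-quartile scaling moved all differences of this comparison up by 0.13 and left 6 lower genes.

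Between 6 and 0 days the cluster differed little. Of the 31 genes 0 were 2-fold higher and 0 lower, where 8.22% and 4.88% of all genes were. The median difference was 0.14, against 0.01 over all genes. The 2 largest differences were in Hist1h1d, at 0.95, and in Hist1h1e, at 0.89, both short of 2-fold on this scale. With a pseudocount of 0.1 there were 4 higher genes (12.9%, with 12.3% of all genes higher) and 3 lower genes (9.7%, with 8.0% of all genes lower), near the shares over all genes.

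Between 10 and 6 days the leading genes of 3 types were higher together. Hist1h1c, Hist1h2bc and Hist1h4i were 2-fold or more higher, which is 3 of 31 genes (9.68%), where 3.70% of all genes were higher. Hist1h1d, Hist1h1e and Hist1h2bb were lower, again 9.68%, where 0.850% of all genes were. The median over the 31 genes was -0.16, below 0 in spite of the 3 higher genes. At 10 days the lower genes rest on an estimated 18.9 fragments for Hist1h1d, 12.4 for Hist1h1e and 1.55 for Hist1h2bb over the coding length. For each of the 3 the counting interval at 10 days lay below that at 6 days, for Hist1h2bb at 0.0116 to 0.630 FPKM, against 0.848 to 2.54 FPKM.

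**Figure D2:**
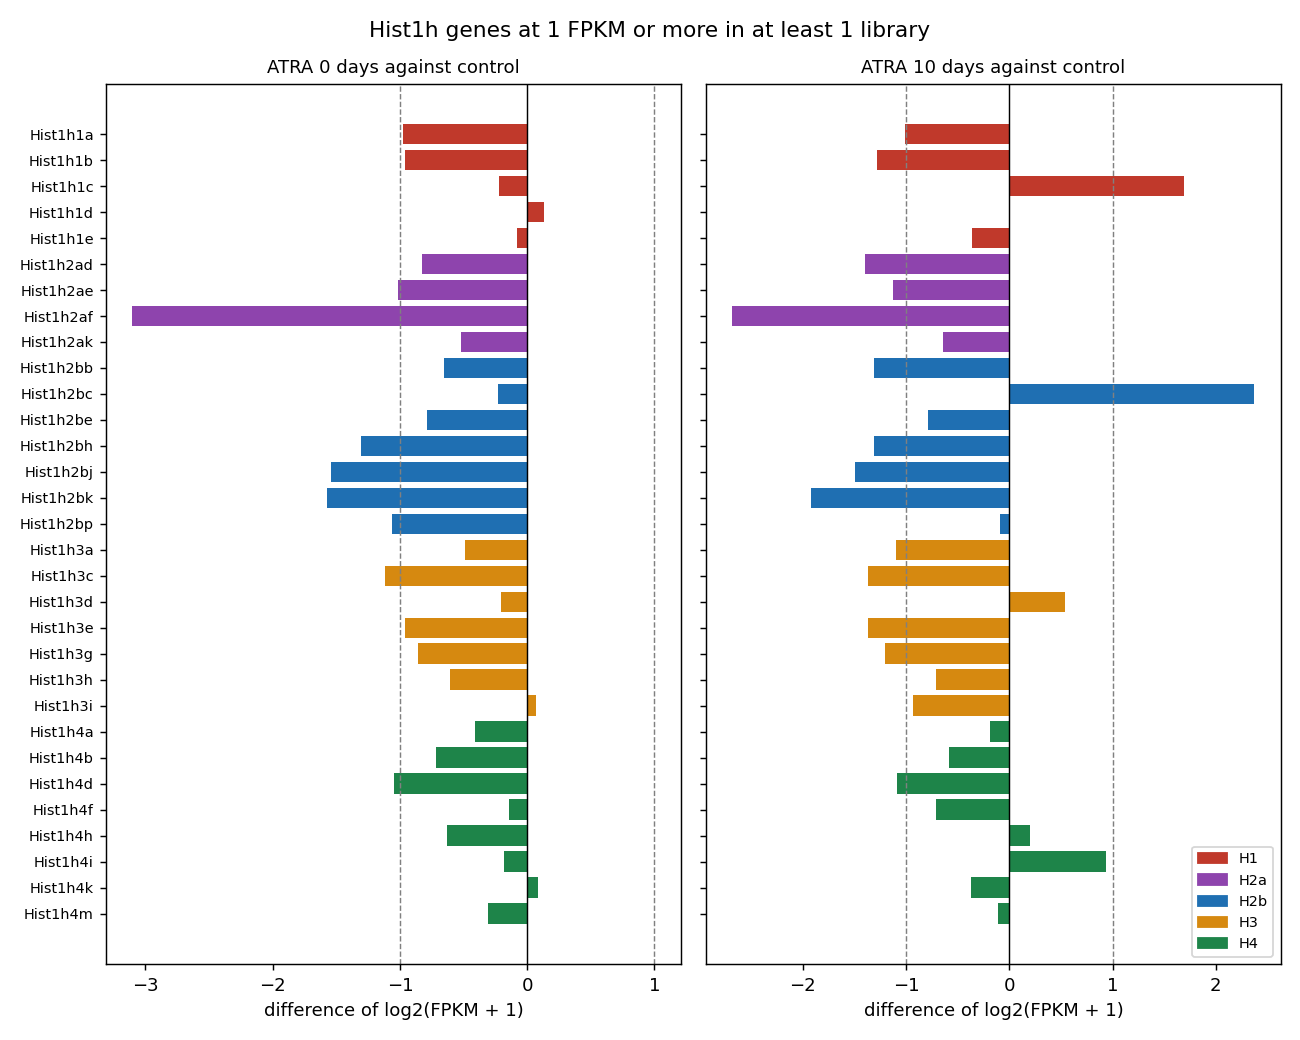
Difference of log2(FPKM + 1) for the 31 Hist1h genes that reached 1 FPKM in any library, for 0 days against the control (left) and 10 days against the control (right), with dashed lines at 2-fold. Hist1h2bc and Hist1h1c pass 2-fold upwards at 10 days, where 14 genes pass it downwards.

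Against the control, 6 days gave 8 lower genes of 31 (25.8%, with 12.5% of all genes lower) and 1 higher gene, Hist1h1d (3.23%, with 15.3% of all genes higher). At 10 days, 14 were lower (45.2%, with 17.1% of all genes lower) and 2 were higher, Hist1h1c and Hist1h2bc (6.45%, with 19.6% of all genes higher). The median differences were -0.54 at 6 days and -0.79 at 10 days. By type, the 14 lower genes at 10 days were 2 of 5 H1, 3 of 4 H2a, 4 of 7 H2b, 4 of 7 H3 and 1 of 8 H4 genes. This split is not free of the filter. Genes that reached 1 FPKM only in the control had to be lower elsewhere. They were 1 H1, 2 H2a, 4 H2b, 2 H3 and 0 H4 genes. The comparisons of 6 and 10 days share the control library with the one at 0 days, so a value particular to that library enters all 3. Without a filter, 37 of 48 genes with a value were lower at 10 days than in the control and 11 were higher, a count with no share of all genes computed. In that setting 14 of 49 Hist1h genes (28.6%) were 2-fold or more lower, with 11.4% of all genes. The count of 14 was again fixed in advance, because the added genes cannot pass 2-fold on this scale, and is no check of the filter.

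**Figure D3:**
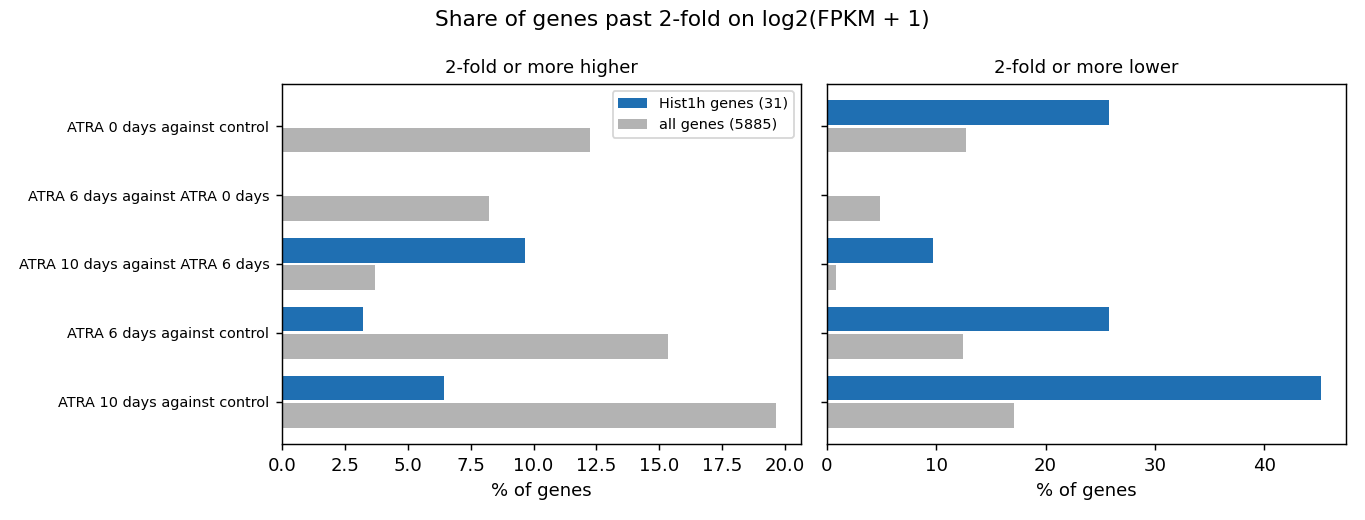
Share of genes 2-fold or more higher (left) and lower (right) on log2(FPKM + 1) in each of 5 comparisons, for the 31 Hist1h genes (blue) and all 5885 genes (grey) that reached 1 FPKM in any library. The Hist1h share is above the share of all genes among lower genes in 4 of the comparisons, and reaches 45.2% at 10 days against the control.

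Summed over a type, most of the H1, H2b and H4 level at 10 days came from the leading gene. The H2b sum was 30.0 FPKM in the control, 16.5 FPKM at 0 days, 26.2 FPKM at 6 days and 85.1 FPKM at 10 days, and Hist1h2bc made up 49.2%, 75.6%, 82.6% and 94.7% of it. Without Hist1h2bc the H2b sum was 15.2, 4.02, 4.56 and 4.52 FPKM. The H1 sum was 15.0, 10.6, 19.0 and 31.0 FPKM, of which Hist1h1c made up 91.0% at 10 days. Without Hist1h1c the H1 genes summed to 6.98 FPKM in the control, 3.82 FPKM at 0 days, 8.14 FPKM at 6 days and 2.79 FPKM at 10 days.

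The H2a sum was 37.4 FPKM in the control, then 5.83, 5.36 and 5.87 FPKM at 0, 6 and 10 days, and 72.3% of the control sum was Hist1h2af. The H3 sum was 14.6, 7.12, 5.31 and 4.47 FPKM from the control to 10 days, with no gene leading in all libraries. The H4 sum was 35.9, 25.5, 23.1 and 44.7 FPKM, of which Hist1h4i made up 67.2% at 10 days. Without Hist1h4i it was 20.6, 12.1, 13.3 and 14.7 FPKM. Over the whole cluster, Hist1h1c, Hist1h2bc and Hist1h4i together made up 28.6% of the control's summed FPKM, and 49.7%, 53.6% and 81.1% at 0, 6 and 10 days. The other 49 genes summed to 94.8 FPKM in the control and to 32.9, 36.6 and 32.3 FPKM at 0, 6 and 10 days. This group of 3 was chosen after its values were seen.

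**Figure D4:**
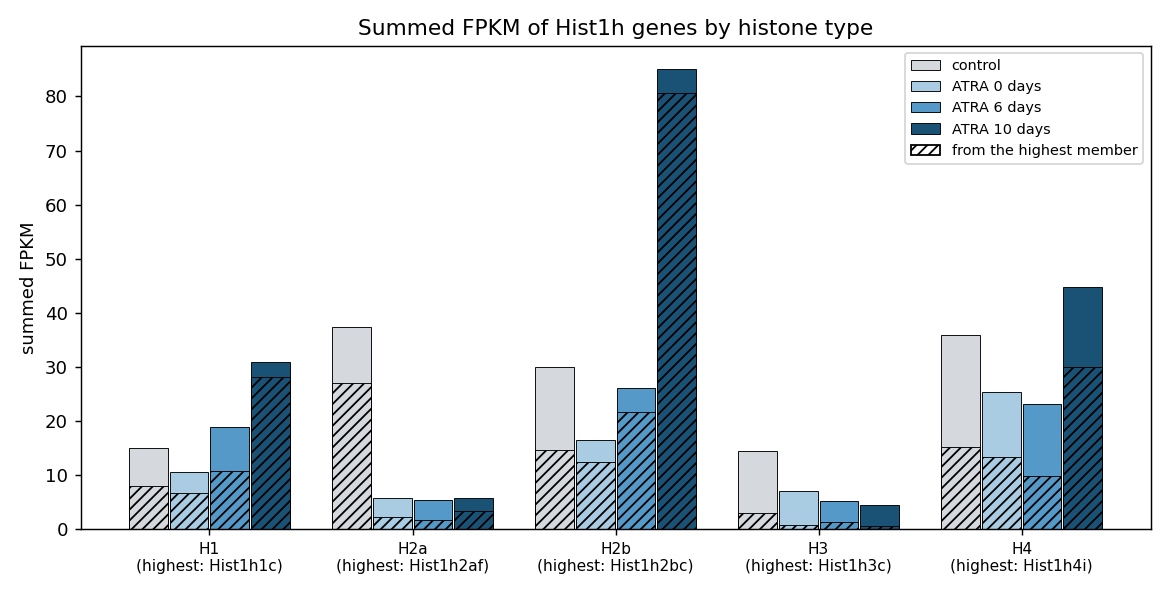
Summed FPKM of the Hist1h genes of each histone type (bars) in the 4 libraries, with the part from the gene of highest mean hatched. The hatched part is 94.7% of the H2b bar and 91.0% of the H1 bar at 10 days, and 72.3% of the H2a bar in the control.

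Hist1h1c, Hist1h2bc and Hist1h4i have annotated 3' UTRs of 880, 742 and 376 nt, and 8.5%, 30.6% and 28.9% of their 50-base stretches occur in other genes, below the median of 49.4%. Long 3' UTRs and few shared stretches were also found in genes that were 2-fold or more lower at 10 days than in the control, such as Hist1h4d (822 nt, 10.2%) and Hist1h2bh (1258 nt, 18.8%). Hist1h2bc and Hist1h1c lie 39th and 42nd of the 52 genes along the chromosome, with Hist1h1t and Hist1h4c between them, and Hist1h4i lies 20th. Of the 15 genes whose annotated transcript runs 100 nt or more past the stem-loop, 10 reached 1 FPKM, and at 10 days against the control, where 19.6% of all genes were higher and 17.1% lower, 1 was higher and 4 were lower. Of the 18 that end within 100 nt, 11 reached 1 FPKM, with 0 higher and 6 lower. Of the 19 with no stem-loop in the transcript, 10 reached 1 FPKM, with 1 higher (Hist1h2bc) and 4 lower. The median of the genes' mean FPKM was 0.851, 0.739 and 0.666 in these 3 classes, which is a description of the annotated ends and no test.

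**Figure D5:**
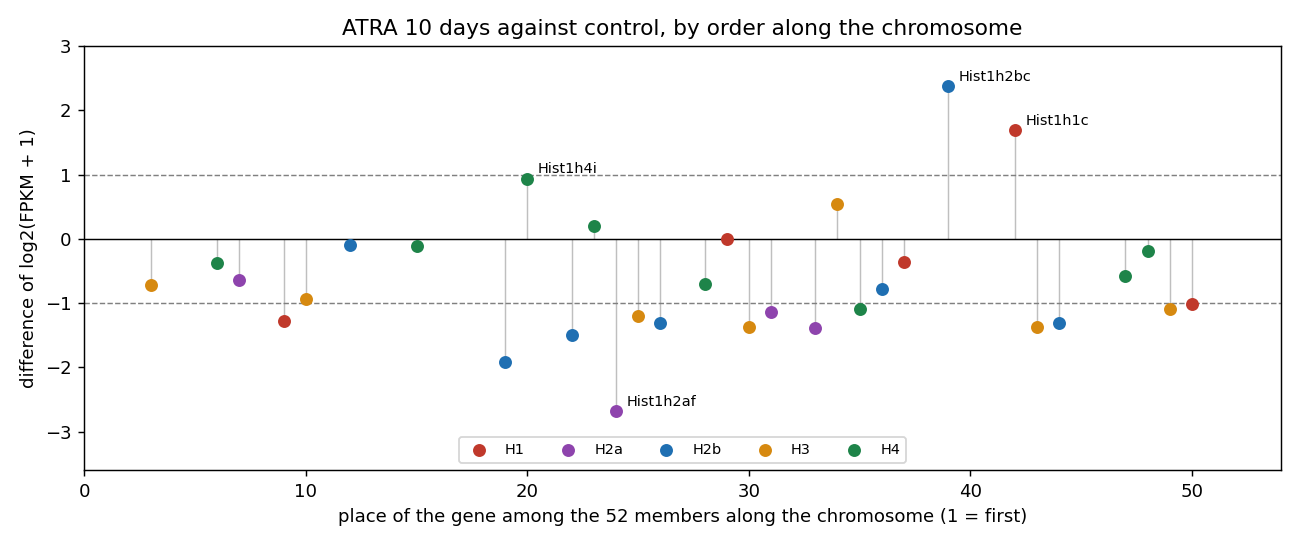
Difference of log2(FPKM + 1) between 10 days and the control for the 31 Hist1h genes that reached 1 FPKM in any library (points, coloured by histone type), by the gene's place among the 52 along the chromosome. Hist1h2bc and Hist1h1c lie near each other above the upper dashed 2-fold line, and lower genes lie along the whole cluster.

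Promoter windows, 250 bases before to 50 bases after the start, were matched in the RefSeq table (GRCm38.p6) for 49 of the 52 genes, leaving Hist1h2bc, Hist1h3a and Hist1h3f. A gene was counted if any of its windows matched, while the share of all is over windows. CCAAT, the box bound by the factor NF-Y, was found on either strand for 41 of 49 genes, against 37.41% of all 32851 windows. It was found for all 6 H1, 12 H2a, 13 H2b and 7 H3 genes, and for 3 of the 11 H4 genes. TATAAA, the letters of the TATA box, was found on either strand for 30 of 49 genes, against 13.62% of all windows. Matches anywhere in the window were counted, such as 250 bases before the start in Hist1h4f and 41 bases after it in Hist1h4a. The 30 are thus not a count of TATA boxes at a set place. ATTTGCAT, the octamer bound by POU factors such as Pou2f1 (Oct1), was found for 5 of 12 H2a and 5 of 13 H2b genes. No H1, H3 or H4 gene had it, against 1.74% of all windows. H2a and H2b genes often lie head to head, so their windows can share bases. The windows of Hist1h1c and Hist1h4i, higher at 10 days than at 6 days, and of Hist1h2af, highest in the control, are shown with the matches in capitals, each on the gene's strand.
Hist1h1c, chr13:23738557-23738856, plus strand: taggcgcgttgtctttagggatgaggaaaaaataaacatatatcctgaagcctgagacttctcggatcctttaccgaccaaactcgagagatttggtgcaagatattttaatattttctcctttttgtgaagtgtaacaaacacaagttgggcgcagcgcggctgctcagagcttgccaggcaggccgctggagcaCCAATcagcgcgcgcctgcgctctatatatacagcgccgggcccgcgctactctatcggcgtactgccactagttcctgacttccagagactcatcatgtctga
Hist1h4i, chr13:22041313-22041612, minus strand: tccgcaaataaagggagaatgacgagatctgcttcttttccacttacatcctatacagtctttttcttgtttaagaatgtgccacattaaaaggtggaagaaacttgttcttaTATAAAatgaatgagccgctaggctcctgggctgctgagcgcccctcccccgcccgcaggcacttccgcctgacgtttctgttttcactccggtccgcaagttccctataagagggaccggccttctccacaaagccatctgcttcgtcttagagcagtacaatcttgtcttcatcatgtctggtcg
Hist1h2af, chr13:23533625-23533924, plus strand: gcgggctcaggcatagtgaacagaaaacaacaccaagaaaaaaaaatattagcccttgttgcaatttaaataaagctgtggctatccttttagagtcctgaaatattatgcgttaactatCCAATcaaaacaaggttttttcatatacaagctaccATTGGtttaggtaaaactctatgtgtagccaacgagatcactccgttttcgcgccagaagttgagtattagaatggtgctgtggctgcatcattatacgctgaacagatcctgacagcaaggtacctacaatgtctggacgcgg
Hist1h1c has a CCAAT match that begins 54 bases before the start. Hist1h2af has a match 130 bases before it and another, on the opposite strand, 94 bases before it. Hist1h4i has TATAAA 137 bases before the start and no CCAAT match in this window. A match is a description of letters and not of a bound site.

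Genes of DNA replication, which are also transcribed around S phase, were lower in the same libraries. Of 39 listed genes 14 were in the table, all at 1 FPKM or more in some library. Of these 9 were 2-fold or more lower at 0 days than in the control and 0 higher, with a median of -1.24. Of all genes 12.8% were lower and 12.2% higher. At 10 days 11 of 14 were lower than in the control (median -1.53), where 17.1% of all genes were lower. Rrm2, a subunit of ribonucleotide reductase, had 299 FPKM in the control, 49.3 FPKM at 0 days, 61.8 FPKM at 6 days and 37.6 FPKM at 10 days. Mcm4, a subunit of the replicative helicase, had 125, 40.6, 40.5 and 28.8 FPKM in that order. Of 7 mitosis genes in the table (23 listed), 5 were lower at 0 days and 4 at 10 days, against the control. Of 6 genes of cell cycle exit in the table (16 listed), 3 were higher at 10 days, where 19.6% of all genes were, and 0 lower. Among the 3 was Cdkn1a, which encodes the CDK inhibitor p21, at 233 FPKM against 64.9 FPKM in the control. The part of cell cycle composition in the histone values was not tested.

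Of 25 listed genes of histone mRNA transcription and processing, 7 were in the table. Snrpd3 and Ncbp2 were 2-fold or more lower at 0 days than in the control, and Pou2f1 and Ncbp2 at 10 days. Of all genes 12.8% were lower at 0 days and 17.1% at 10 days. None of the 7 was higher in either, where 12.2% and 19.6% of all genes were. Ncbp2, a subunit of the nuclear cap-binding complex, had 96.6, 42.0, 56.0 and 41.6 FPKM from the control to 10 days. Pou2f1 had 9.90 FPKM in the control, 7.55 FPKM at 0 days, 3.07 FPKM at 6 days and 2.44 FPKM at 10 days. Snrpd3, a core protein of small nuclear ribonucleoproteins, had 604, 269, 459 and 376 FPKM. Of 12 histone chaperones and assembly factors in the table (21 listed), 2 were lower and 1 higher at 0 days, and 4 were lower at 10 days. The counts at 0 days are near the shares of all genes. Chaf1b, a subunit of the replication-coupled assembly factor CAF-1, had 53.7, 15.4, 21.6 and 18.2 FPKM from the control to 10 days. Npm1, the chaperone nucleophosmin, had 3027, 1398, 1603 and 1093 FPKM.

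Histone genes outside the cluster followed several courses. H3f3b, which encodes the replacement histone H3.3, had 757, 883, 562 and 495 FPKM from the control to 10 days, within 2-fold of the control throughout. H1f0, the replacement linker histone of cells that stop dividing, had 44.6 FPKM in the control, 92.1 FPKM at 0 days, 181 FPKM at 6 days and 233 FPKM at 10 days. It was the only 1 of 6 replication-independent variants at 1 FPKM or more to be 2-fold higher at 10 days than in the control. None was lower, where 19.6% of all genes were higher and 17.1% lower. The list has 16 variants, of which 8 were in the table. H2afv and H2afy2, which encode variants of H2A, each stayed within 2-fold of the control in every library. Hist3h2a, in another histone cluster, had 23.3, 19.8, 15.3 and 14.6 FPKM, and Hist3h2ba 3.04, 9.72, 10.8 and 8.53 FPKM.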

How the data were processed

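The deposited values are FPKM per gene, per the file headers, with 1 column for each of the 4 libraries. The submitters' processing notes name Trimmomatic, TopHat, Cufflinks and mm10, with no versions. FPKM divides by transcript length and library total, so values of short transcripts are unstable. Rows of a repeated symbol were summed (177 symbols, among them Hist1h2ao, listed at 0 in both rows).

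A gene entered a comparison if any library had it at 1 FPKM, which left 5885 genes, and was called at a difference of 2-fold on the log2(FPKM + 1) scale, with no test. Depth came from the median of FPKM times length in kb between 0.02 and 0.05, where 122 to 145 of 1377 genes with a single annotated transcript of 800 nt or more lay; a wider window changed it by less than 5%. The calculations were tested on simulated data. The simulated transcripts were longer than most Hist1h transcripts, and the changed genes had higher values and changes well past 2-fold. Calls at the low values of most Hist1h genes were thus not tested.

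Hist1h genes at 1 FPKM were given in every library if among the 6 highest of their type by mean, and otherwise by range; genes below it were named. Genes of other lists were named from the 4 with the largest difference at 0 or 10 days against the control. Members and lists were chosen with earlier results of these data known. The alternatives changed the pseudocount, filter, scaling, fold threshold and handling of repeated symbols. Python 3.11.15 was used, with pandas 2.3.3, numpy 2.4.6 and scipy 1.17.1 for the values, and matplotlib 3.10.9 for figures.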

Additional observations from a re-analysis of the deposited data

How the results depend on the processing

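No paired analysis was possible because each group is 1 library, which also leaves no fit without a library. Of 154 recomputed values, 116 were labelled the same, 33 moved and 5 reversed. A count was labelled the same if it changed by up to 1.5-fold. Against the control, this held for 8 lower genes at 0 days (12.8%) and 6 with median-ratio scaling (10.8%). It also held for 14 lower genes at 10 days (17.1%) and 19 with a pseudocount of 0.1 (20.7%). The alternative for symbols with several rows could not change any Hist1h value, because only Hist1h2ao was repeated, at 0. Its labels were thus fixed in advance and check nothing. The same holds for the counts without a filter, since a gene below 1 FPKM in every library cannot pass 2-fold on log2(FPKM + 1). Each count is followed by the share of all genes that passed in the same setting.

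With a pseudocount of 0.1, lower genes numbered 18 at 0 days against the control (15.8%), 14 at 6 days against the control (15.8%), 3 at 6 against 0 days (8.0%) and 8 at 10 against 6 days (3.1%). Higher genes then numbered 4 at 6 against 0 days (12.3%), 5 at 10 against 6 days (6.2%) and 2 at 6 days against the control (20.8%). The medians against the control became -1.10 at 0 days, -0.84 at 6 days and -1.47 at 10 days. A pseudocount of 0.5 gave 14 lower genes at 0 days against the control (14.2%), 2 higher (10.3%) and 1 lower (6.1%) at 6 against 0 days, and 6 lower at 10 against 6 days (1.7%).

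A filter at 5 FPKM left 4 genes and no H3 gene. Of these 1 was lower at 0 days (14.2%), at 6 days (13.7%) and at 10 days (19.0%) against the control, 0 were higher at 6 days against the control (14.4%) and 0 were lower at 10 against 6 days (0.8%). The medians were -0.22 and -0.10 at 0 and 6 days against the control, and reversed to 1.31 at 10 days against the control and 1.41 at 10 against 6 days. The log2 ratios of sums at 10 days over the control became 1.81 for H1, 2.45 for H2b and 0.98 for H4, against 1.05, 1.51 and 0.32 over all genes of the type.

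At a 4-fold threshold 1 gene was lower at 0 days (2.6%), 2 were lower (2.5%) and 0 higher (5.4%) at 6 days, and 1 was lower (3.2%) and 1 higher (8.0%) at 10 days, each against the control. At 10 against 6 days 0 were higher (0.5%) and 0 lower (0.1%). The shares of the 31 genes at 0 and 10 days, 3.2% lower in both, are near those of all genes.

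Leaving out Hist1h1c, Hist1h2bc and Hist1h4i, chosen after seeing the data, left 0 higher genes at 10 days against 6 days (3.7%) or against the control (19.6%), and reversed the ratios of sums to -1.32 for H1, -1.75 for H2b and -0.49 for H4. With either scaling Hist1h4i passed 2-fold at 10 days against the control, making 3 higher genes. The cause of these changes was not tested. At 1 FPKM a value rests on about 10 fragments, and near-identical genes share reads.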
